A study of Mus musculus with 15 samples.

Results

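The 10 genes described here encode death receptors, their ligands, and adaptors and ubiquitin regulators that act just below them. They were picked by symbol, through the Entrez ID in each library's count file, out of 36528 gene IDs. The ligands are Tnf, Fasl and Tnfsf10, which encodes TRAIL. The receptors are Tnfrsf1a, which encodes TNF receptor 1, Fas and Tnfrsf10b, the mouse TRAIL receptor. The adaptors and regulators are Tradd, Traf2, Birc2, which encodes cIAP1, and Cyld. All 10 had at least 1 count in some library, 8 passed the filter on low counts, and Tnf and Fasl did not.

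The RNA came from mouse embryonic intestine at E16.5, a label that counts days of gestation, in 15 libraries of polyA RNA, 5 for each Casp8 genotype. The C362A libraries carried a Casp8 knockin in which the catalytic cysteine of caspase-8 is replaced by alanine, together with an Mlkl knockout. The knockout libraries were labelled as a double knockout of Casp8 and Mlkl. The wildtype libraries had wildtype Casp8 and also an Mlkl knockout, so every group, the controls included, lacked MLKL, the pseudokinase that carries out necroptosis. The labels call the tissue small intestine, inflamed in every C362A library and normal in all others, and do not say whether that was scored per embryo. They name no litter, sex or replicate and do not say that each library is a separate embryo, so the p-values measure the spread between these samples, which may be technical in part. The 2 comparisons with wildtype share its 5 libraries.

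Death receptors are cell surface receptors whose cytoplasmic death domain gathers adaptors once a ligand has bound. Fas and the TRAIL receptor recruit the adaptor FADD and with it caspase-8. TNF receptor 1 first gathers TRADD, TRAF2 and cIAP1 into a complex in which ubiquitin chains lead to NF-kB signalling, and the deubiquitinase CYLD removes such chains, which favours a second, death-inducing complex. In the intestine of adult mice, TNF signalling in epithelial cells is a known trigger of cell death and inflammation.

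Libraries held 31896399 to 38532127 counts. Casp8, the check of the genotypes, averaged 69.9 ± 3.41 CPM (counts per 1e6 counts, scaled by TMM factors; SD) in C362A libraries, 14.4 ± 1.65 CPM in knockout libraries and 70.1 ± 5.97 CPM in wildtype libraries. Each knockout library still held 390 to 608 counts of Casp8. The C362A substitution itself cannot be read from gene counts. Mlkl averaged 0.389 ± 0.261 CPM in C362A libraries, 0.521 ± 0.119 CPM in knockout libraries and 0.506 ± 0.179 CPM in wildtype libraries (SD, n = 5 each). Markers of intestinal epithelium and smooth muscle were abundant in every library, with Cdx2, an intestinal transcription factor gene, at 209 to 313 CPM and Myh11, a smooth muscle myosin gene, at 659 to 1025 CPM. The libraries fall into a pair of runs of consecutive sample ID numbers, called ID runs here, with 2 libraries per genotype in run 1 and 3 in run 2. The labels do not say what the runs stand for. Summed Y-linked transcripts were below 1 CPM in 3 of the 5 C362A libraries, in 1 knockout library and in 1 wildtype library, and at 92.5 CPM or more in all others. With their level as a covariate, 7 genes instead of 15 were called in C362A against wildtype, and 0 of the 8 tested here in any comparison. That fit called 0.0381% of all genes in C362A against wildtype, 0.0163% in knockout against wildtype and 0.0109% in C362A against knockout.

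Promoter sequence, the 250 bases before a transcription start in RefSeq on GRCm38.p6, was found for 8 of the 10 genes, Tradd and Tnfrsf10b being without an entry. The promoters below belong to Tnf, a ligand with few reads, to Cyld, the only gene of the 8 with a match to the NF-kB consensus, and to Cxcl10, an NF-kB and interferon target gene described further on. Tnf lies at chr17:35202008-35202257 on the minus strand, Cyld at chr8:88696778-88697027 on the plus strand and Cxcl10 at chr5:92348890-92349139 on the minus strand. Each is printed 5′ to 3′ toward the start site, with motif matches in capitals.
Tnf: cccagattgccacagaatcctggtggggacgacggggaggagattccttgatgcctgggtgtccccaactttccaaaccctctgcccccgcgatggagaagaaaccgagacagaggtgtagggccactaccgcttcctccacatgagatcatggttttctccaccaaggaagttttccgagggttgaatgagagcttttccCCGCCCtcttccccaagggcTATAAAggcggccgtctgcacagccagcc
Cyld: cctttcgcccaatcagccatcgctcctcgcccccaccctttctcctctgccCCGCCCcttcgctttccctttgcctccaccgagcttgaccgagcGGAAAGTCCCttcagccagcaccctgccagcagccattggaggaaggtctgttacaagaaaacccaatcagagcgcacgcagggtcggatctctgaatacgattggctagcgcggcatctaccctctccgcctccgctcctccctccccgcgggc
Cxcl10: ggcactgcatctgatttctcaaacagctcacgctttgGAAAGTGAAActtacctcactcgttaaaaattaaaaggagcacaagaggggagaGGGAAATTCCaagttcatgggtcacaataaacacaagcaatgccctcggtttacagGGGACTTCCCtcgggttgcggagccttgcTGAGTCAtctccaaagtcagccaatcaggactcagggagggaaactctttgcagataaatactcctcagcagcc
Searched on both strands were the TATA box (TATAAA), the GC box (GGGCGG), the AP-1 site (TGANTCA), the interferon response element (GAAANNGAAA) and the NF-kB consensus. Of all 32851 mouse promoters of this length, 12.4% held the TATA box, 32.7% the GC box, 6.75% the AP-1 site, 2.98% the interferon response element and 3.90% the NF-kB consensus. The capitals in Tnf are a GC box from position −49 and a TATA box from position −29, counted from the start site. Those in Cyld are a GC box from −199 and an NF-kB match from −155. Those in Cxcl10 are an interferon response element from −213, NF-kB matches from −159 and −103, and an AP-1 site from −74. No motif searched overlapped another in these 3 windows, and a match describes letters, not a site in use. Fas held a GC box and an AP-1 site, Fasl and 1 of the 2 start sites of Birc2 held GC boxes, and Tnfrsf1a, Tnfsf10 and Traf2 held none of the 5. The ratio of observed to expected CpG was 0.82 in Cyld, 0.83 in Traf2 and 0.81 and 1.07 at the 2 start sites of Birc2. It was 0.37 to 0.55 in the promoters of Tnf, Fasl, Tnfsf10, Tnfrsf1a and Fas, with a median of 0.37 over all promoters.

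The order of the levels was the same in all 3 genotypes when given per transcript length, in RPKM as the authors deposited it. Tnfrsf1a was highest at 69.2 ± 6.39 RPKM (SD over 15 libraries), above 96.4% of the genes with a count, and it exceeded Tradd, at 17.3 ± 1.56 RPKM, by 4-fold. Birc2 (7.94 ± 1.15 RPKM), Traf2 (6.35 ± 0.418 RPKM) and Cyld (4.92 ± 0.434 RPKM) followed. Birc2 and Traf2 overlapped in range, with Birc2 above Traf2 in 13 of 15 libraries, and Traf2 and Cyld overlapped although Traf2 was the higher in 15 of 15.

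The other receptors and their ligands were lower. Tnfrsf10b averaged 2.34 ± 0.245 RPKM, Fas 2.11 ± 0.404 RPKM and Tnfsf10 1.36 ± 0.368 RPKM, and each of these 3 overlapped its neighbour in range. Tnf averaged 0.0937 ± 0.0776 RPKM, 14.5-fold below Tnfsf10, and Fasl 0.00784 RPKM. The ranges of Tnfrsf1a and Tradd, of Tradd and Birc2, of Cyld and Tnfrsf10b, and of Tnfsf10 and Tnf did not overlap. Among 26 further genes listed as TNF receptor family, Ltbr, the lymphotoxin beta receptor, was the only 1 with a mean above Tnfrsf1a, at 83.3 RPKM, while Tnfrsf1b, which encodes TNF receptor 2, averaged 3.58 RPKM. Among 15 further ligands, Tnfsf12, which encodes TWEAK, was highest at 6.31 RPKM, and Cd40lg, a ligand of activated T cells, was listed at 0 in every library.

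**Figure D1:**
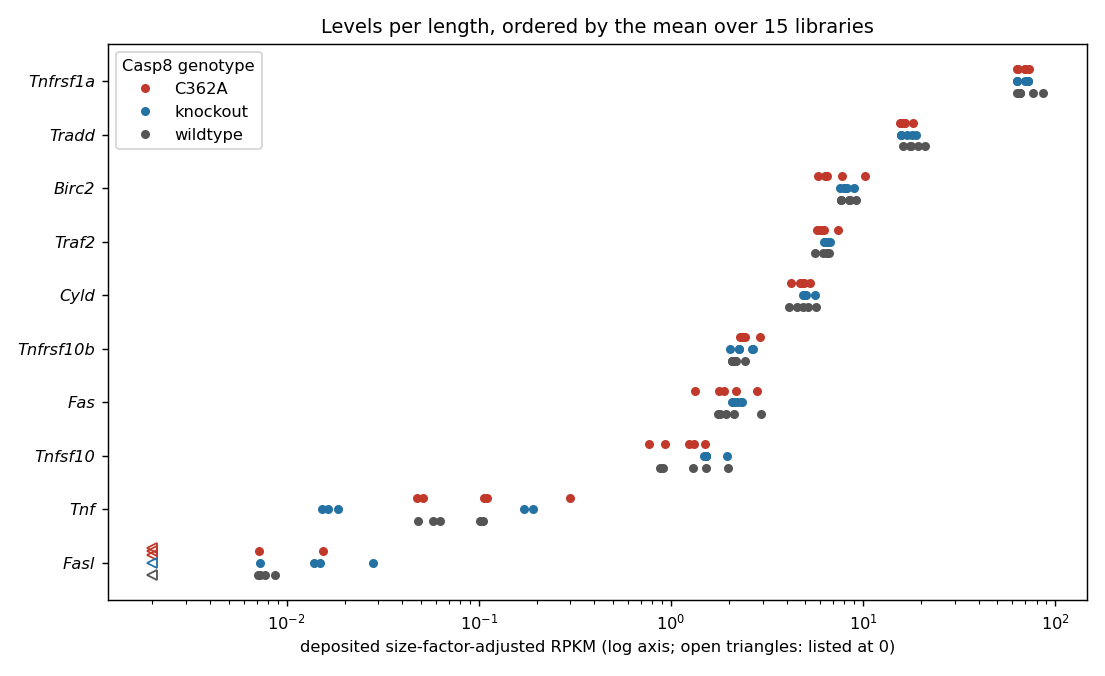
Deposited RPKM (log axis) of the 10 genes in each of 15 libraries, ordered by their mean, with colours for the genotypes. Tnfrsf1a stands highest, at 63.3 to 86.4 RPKM, and Tnf and Fasl stand apart at the low end.

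Set against wildtype, C362A shows the tissue with an inactive caspase-8 while necroptosis through MLKL is blocked. Knockout against wildtype shows it without the protein, and C362A against knockout sets the inactive protein against its absence. None of the 8 genes tested passed in any of them. In edgeR's quasi-likelihood test, 0 of 8 were called in C362A against wildtype, where 0.0817% of 18370 genes were called. In knockout against wildtype it was 0 of 8, with 0.0381% of all genes called, and in C362A against knockout 0 of 8, with 0.0109%. The test for any difference among the 3 genotypes also called 0 of 8, with 0.0708% of all genes. DESeq2, limma-voom and limma on log2(RPKM + 1) called 0 of 8 in each as well. With so few calls over all genes, a count of 0 among 8 is what the background gives.

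At an unadjusted p under 0.05 in edgeR, the counts were 0 of 8, 0 of 8 and 1 of 8 in the same order of comparisons, against 15.9%, 2.43% and 13.9% of all genes. The median log2 fold change of the 8 was −0.07 in C362A against wildtype, 0.05 in knockout against wildtype and −0.07 in C362A against knockout, against 0.01, 0.00 and 0.01 over all genes. All 10 genes overlapped between the groups in every comparison, where 1.16%, 0.702% and 2.85% of all tested genes did not. The 95% intervals of the fold changes from edgeR bound what these libraries could hide. Over the 8 genes they ran from 0.640-fold to 1.31-fold in C362A against wildtype, from 0.811-fold to 1.66-fold in knockout against wildtype, and from 0.527-fold to 1.21-fold in C362A against knockout. In whole tissue, fewer cells of a type and less RNA per cell cannot be told apart.

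**Figure D2:**
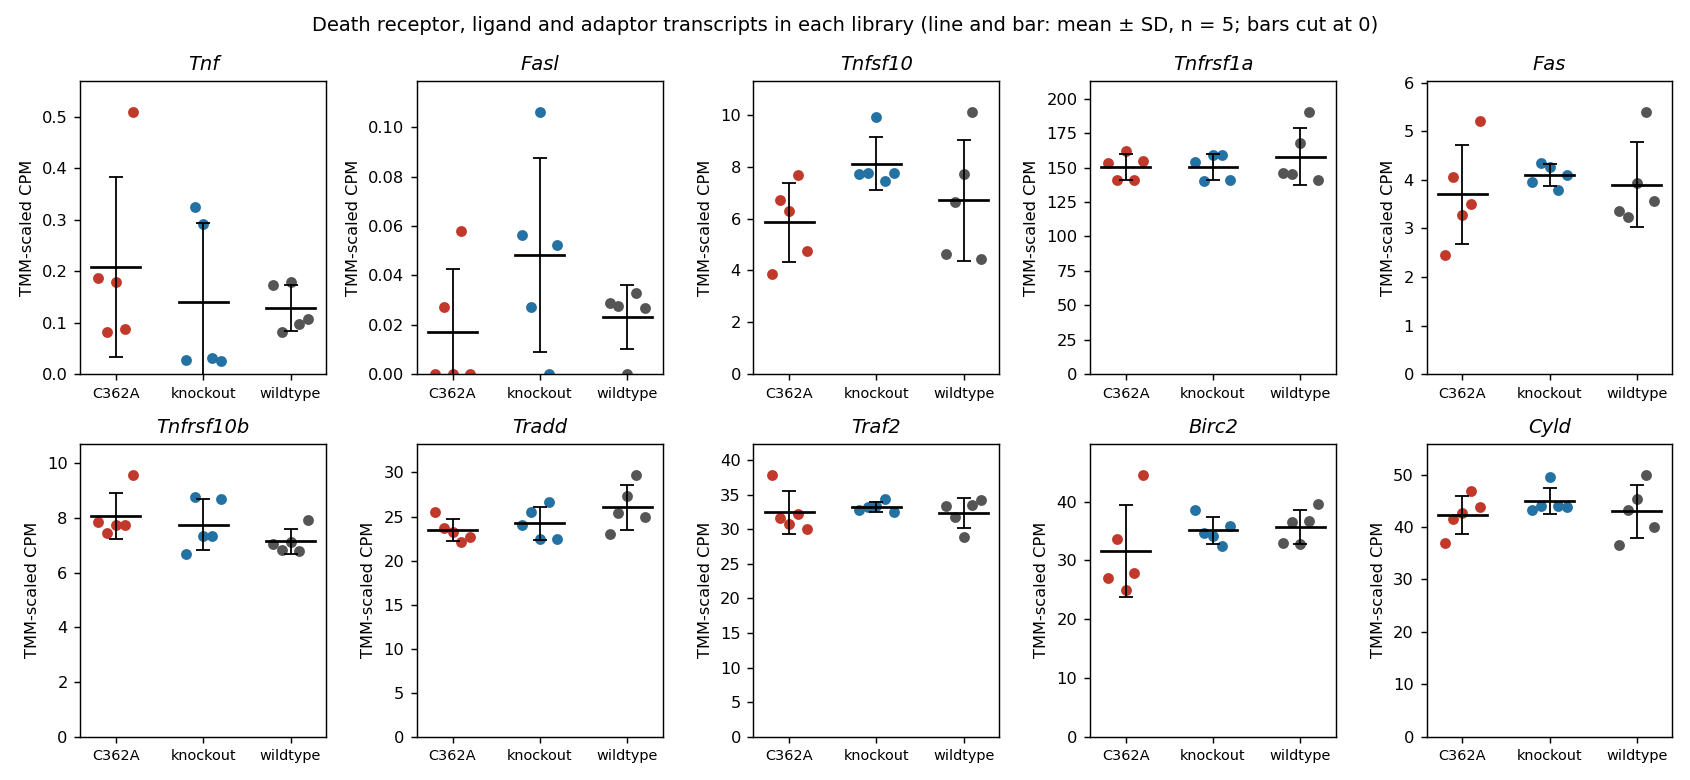
TMM-scaled CPM of the 10 genes in each library, in C362A, knockout and wildtype, with mean ± SD (n = 5 each). The groups overlap in every panel. The highest C362A point of Tnf, Birc2, Fas and Tnfrsf10b is replicate 5 in each case.

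The ligand Tnf, the cytokine that starts TNF receptor 1 signalling (Entrez 21926, chr17:35199367-35202007, GRCm38, minus strand), was close to the limit of detection in all genotypes. It had 6, 3, 6, 3 and 17 counts in the C362A libraries, 1, 12, 11, 1 and 1 counts in the knockout libraries and 6, 3, 6, 3 and 4 counts in the wildtype libraries. C362A replicate 5 and knockout replicates 2 and 3 stood above the rest, and the groups overlapped. Summed over 5 libraries, Tnf was at 0.208 CPM in C362A libraries (exact Poisson 95% interval 0.145 to 0.289), 0.142 CPM in knockout libraries (0.0928 to 0.208) and 0.128 CPM in wildtype libraries (0.0800 to 0.193). These intervals cover counting error only, and 3 counts, the floor used here, are worth 0.0779 to 0.0941 CPM in a library. In a fit with no filter on low counts, the log2 fold change for C362A against wildtype was 0.68 (SE 0.66, adjusted p = 0.637 by edgeR), and its interval ran from 0.621-fold to 4.13-fold.

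Fasl, the ligand of Fas carried by cytotoxic lymphocytes (Entrez 14103, chr1:161780691-161788495, minus strand), had 0 to 2 counts in C362A, 0 to 4 in knockout and 0 to 1 in wildtype libraries. The sums were 3, 9 and 4 counts over 5 libraries each, and no fold is given for so few. Markers of the cells known to carry Fasl differed in depth. Cd3e, a gene of the T cell receptor complex, had 0 to 1 counts in C362A, 0 to 8 in knockout and 0 to 5 in wildtype libraries. Prf1, the perforin gene, had 1 to 5, 0 to 6 and 0 to 4 counts. Gzmb, the granzyme B gene, had 19 to 74, 10 to 27 and 5 to 38 counts in the same order, and Nkg7, a granule protein gene, had 18 to 40, 22 to 35 and 24 to 39. Of 18 markers of T, NK and innate lymphoid cells all were detected somewhere, and their summed level was 51.4 to 68.3 CPM in C362A, 62.9 to 84.2 CPM in knockout and 57.5 to 77.9 CPM in wildtype. Of these markers 14 were tested, and edgeR made 1 call among them, counted over the comparisons, with at most 0.0817% of all genes called. Their part in the Fasl counts was not tested.

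Tnfsf10, which encodes TRAIL (Entrez 22035, chr3:27317077-27339665, plus strand), was the gene with the lowest p of the 8. It was at 3.86, 6.73, 6.28, 7.67 and 4.76 CPM in C362A, at 7.72, 7.75, 9.94, 7.45 and 7.78 CPM in knockout and at 4.63, 6.64, 7.71, 10.1 and 4.45 CPM in wildtype libraries. Of the C362A libraries 4 lay below the lowest knockout library, and the wildtype libraries overlapped both groups. For C362A against knockout the log2 fold change was −0.47 (SE 0.21, unadjusted p = 0.0427 and adjusted p = 0.347 by edgeR), an interval of 0.527-fold to 0.988-fold. The exact two-sided permutation test over the 252 splits gave p = 0.0159 for it. Adjusted over all genes that test called no gene here, and the smallest adjusted p it gave was 0.279. Its splits allow no p below 0.00794, so the adjusted value cannot decide for a single gene. The log2 fold change of Tnfsf10 was −0.44 within ID run 1 and −0.50 within ID run 2. With the mean log2 CPM of 16 enterocyte markers as a covariate it was 0.08 (SE 0.20, adjusted p = 1 by edgeR). That mean was 8.03 to 8.92 in C362A and 9.02 to 9.32 in knockout libraries, without overlap. The fit with this covariate therefore cannot tell genotype from marker level in that comparison. Those markers summed to 8259 to 18094 CPM in C362A, 18944 to 22719 CPM in knockout and 11470 to 34642 CPM in wildtype libraries.

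**Figure D3:**
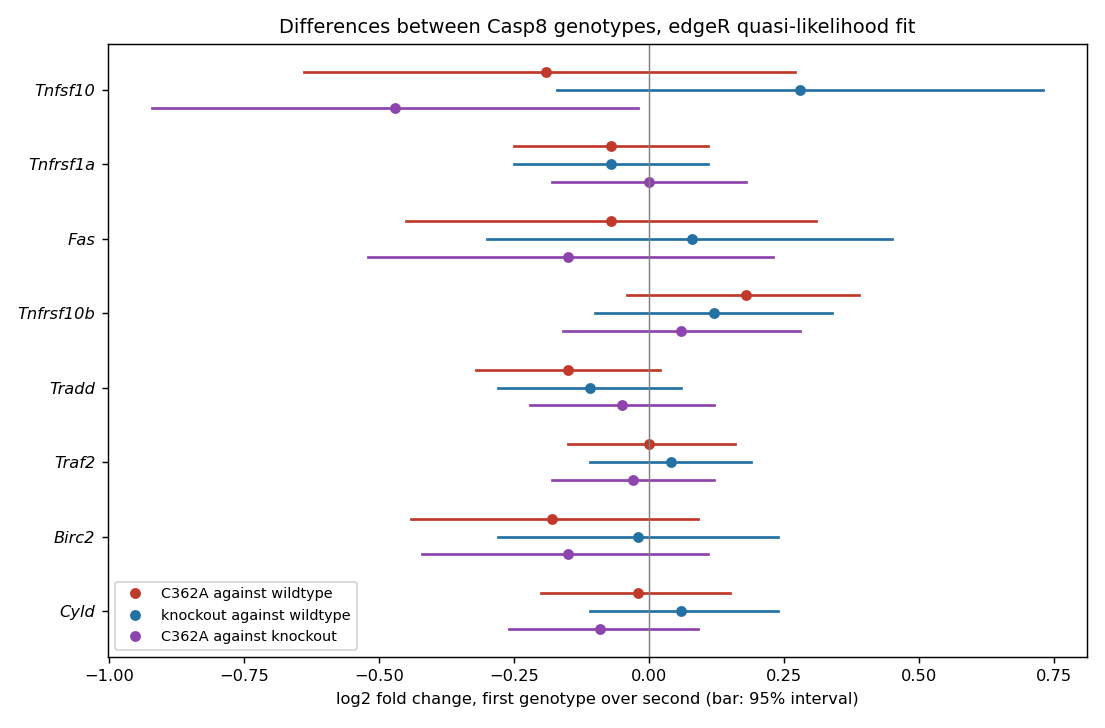
Log2 fold change with 95% interval from edgeR for the 8 genes tested, in C362A against wildtype, knockout against wildtype and C362A against knockout. The interval of Tnfsf10 in C362A against knockout is the only 1 that leaves out 0, before adjustment for the number of genes.

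Among the receptors, Tnfrsf1a (Entrez 21937, chr6:125349723-125362483, plus strand) had close to the same level in all genotypes. It was at 153, 141, 162, 141 and 155 CPM in C362A, at 154, 140, 159, 159 and 141 CPM in knockout and at 146, 145, 168, 190 and 141 CPM in wildtype libraries. Wildtype replicate 4 was highest, and the groups overlapped. The log2 fold change for C362A against wildtype was −0.07 (SE 0.08, adjusted p = 0.690 by edgeR), and the interval of 0.843-fold to 1.08-fold bounds the difference closely. For knockout against wildtype it was −0.07, and for C362A against knockout 0.00 with an interval of 0.884-fold to 1.13-fold.

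Fas, the receptor of Fas ligand (Entrez 14102, chr19:34290647-34327775, plus strand), was at 2.46, 4.06, 3.28, 3.50 and 5.21 CPM in C362A, at 3.96, 4.35, 4.27, 3.80 and 4.11 CPM in knockout and at 3.35, 3.24, 3.93, 5.39 and 3.57 CPM in wildtype libraries. The C362A and wildtype libraries spread widely, while the SD of the knockout libraries was 0.223 CPM, against 1.02 CPM in C362A and 0.877 CPM in wildtype. These SDs were not compared by a test. The log2 fold change for C362A against wildtype was −0.07 (SE 0.18, adjusted p = 0.859 by edgeR), an interval of 0.732-fold to 1.24-fold.

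Tnfrsf10b, the receptor of TRAIL (Entrez 21933, chr14:69767472-69784411, plus strand), was at 7.85, 7.46, 7.75, 7.73 and 9.56 CPM in C362A, at 6.68, 8.76, 7.32, 7.33 and 8.67 CPM in knockout and at 7.06, 6.83, 7.11, 6.80 and 7.91 CPM in wildtype libraries. All 5 C362A libraries lay above the wildtype median, but only replicate 5 lay above the highest wildtype library. For C362A against wildtype the log2 fold change was 0.18 (SE 0.10, adjusted p = 0.387 by edgeR). The exact two-sided permutation test gave p = 0.0397, and adjusted over all genes it gave no gene a p below 0.501. Its splits allow no p below 0.00794, so the adjusted value cannot decide for a single gene. The log2 fold change was 0.26 within ID run 1 and 0.11 within ID run 2.

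Among the adaptors, Tradd, the death domain adaptor of TNF receptor 1 (Entrez 71609, chr8:105258575-105264594, minus strand), averaged 23.5 ± 1.30 CPM in C362A libraries, 24.2 ± 1.89 CPM in knockout libraries and 26.1 ± 2.55 CPM in wildtype libraries (n = 5 each). The C362A libraries ran from 22.1 to 25.5 CPM and the wildtype libraries from 23.0 to 29.7 CPM, so that 2 of 5 C362A libraries lay below all wildtype ones. The log2 fold change for C362A against wildtype was −0.15 (SE 0.08, adjusted p = 0.346 by edgeR), and it was −0.12 and −0.17 within ID runs 1 and 2. For knockout against wildtype it was −0.11, with an adjusted p of 1 by edgeR.

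Traf2, the RING domain adaptor that brings the cIAP proteins to the receptor (Entrez 22030, chr2:25517982-25546940, minus strand), was at 37.8, 31.6, 30.7, 32.2 and 30.0 CPM in C362A, at 32.7, 33.2, 33.3, 34.4 and 32.5 CPM in knockout and at 33.3, 31.8, 28.9, 33.5 and 34.2 CPM in wildtype libraries. C362A replicate 1 was the highest of all, and the other 4 C362A libraries lay below every knockout library. Its log2 fold change was 0.00 for C362A against wildtype (SE 0.07) and −0.03 for C362A against knockout. The interval against wildtype, 0.903-fold to 1.11-fold, was the narrowest of the 8 genes.

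Cyld, the deubiquitinase (Entrez 74256, chr8:88696878-88751946, plus strand), averaged 42.3 ± 3.64 CPM in C362A libraries, 45.0 ± 2.55 CPM in knockout libraries and 43.0 ± 5.08 CPM in wildtype libraries (n = 5 each). Its log2 fold changes were −0.02 for C362A against wildtype, 0.06 for knockout against wildtype and −0.09 for C362A against knockout, each with an SE of 0.08. Knockout replicate 3, at 49.5 CPM, stood above the other knockout libraries, which lay between 43.3 and 44.1 CPM.

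Birc2, which encodes the ubiquitin ligase cIAP1 (Entrez 11797, chr9:7818226-7837131, minus strand), was the only gene of the 10 whose call depended on a single library. It was at 27.0, 33.6, 25, 27.9 and 44.5 CPM in C362A, at 38.6, 34.6, 34.1, 32.5 and 35.8 CPM in knockout and at 32.9, 36.6, 32.8, 36.7 and 39.6 CPM in wildtype libraries. Of the C362A libraries 3 lay below every wildtype library, and replicate 5 lay above every other library of the series. Over all libraries the log2 fold change for C362A against wildtype was −0.18 (SE 0.12, adjusted p = 0.459 by edgeR). Without C362A replicate 5 it was −0.33 (SE 0.09, adjusted p = 0.0366 by edgeR), in a fit that called 9.76% of 18510 genes.

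The ID runs differed in the same way for Birc2. Within run 2, which holds C362A replicates 1, 3 and 4, the log2 fold change for C362A against wildtype was −0.50 (SE 0.10, adjusted p = 0.00835 by edgeR), with 13.5% of 18343 genes called. Within run 1, which holds C362A replicates 2 and 5, it was 0.24 (SE 0.15, adjusted p = 1 by edgeR). Against knockout, Birc2 had −0.15 over all libraries, −0.31 without C362A replicate 5 (adjusted p = 0.0573 by edgeR, with 4.35% of all genes called), 0.14 in run 1 and −0.40 in run 2 (adjusted p = 0.0548, with 2.03% called). The test for any difference among the genotypes called Birc2 in run 2 (adjusted p = 0.0201 by edgeR), with 6.97% of all genes called. Over all tested genes the count called in C362A against wildtype was likewise 15 with and 1807 without replicate 5. No other of the 8 genes passed in either of those fits.

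Most of the other genes of the pathway also did not pass. The lists hold 15 further ligands, 26 genes of the receptor family with 1 of its adaptors, 38 genes of the receptor complexes and 28 known targets of TNF and NF-kB signalling, of which 10, 23, 38 and 24 were tested. In C362A against wildtype 0 ligands, 0 receptors, 0 complex genes and 1 target passed, with 0.0817% of all tested genes called. In knockout against wildtype 1 complex gene, Casp8, was lower and 1 target, Cxcl10, was higher, with 0.0381% of all genes called. In C362A against knockout only Casp8 of these lists passed, higher in C362A, which restates the genotype, with 0.0109% of all genes called.

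Cxcl10, a chemokine gene induced by interferons and NF-kB (chr5:92346638-92348889, minus strand), rose in C362A and in knockout. It was at 5.42, 4, 4.45, 4.23 and 3.36 CPM in C362A, at 1.63, 2.01, 2.94, 1.62 and 1.80 CPM in knockout and at 0.839, 0.768, 0.655, 0.850 and 0.560 CPM in wildtype libraries. The 3 groups did not overlap. Of all tested genes, 1.16% did not overlap in C362A against wildtype, 0.702% in knockout against wildtype and 2.85% in C362A against knockout. The log2 fold change was 2.54 for C362A against wildtype (SE 0.20, adjusted p = 7.96e-06 by edgeR) and 1.45 for knockout against wildtype (SE 0.20, adjusted p = 0.0143 by edgeR). For C362A against knockout it was 1.10 (SE 0.19) and did not pass in edgeR (adjusted p = 0.110), although it did in DESeq2 (adjusted p = 0.000282), without C362A replicate 5 (adjusted p = 0.0252 by edgeR) and without knockout replicate 3 (adjusted p = 0.0155 by edgeR). Without C362A replicate 5, that comparison called 4.35% of all genes. The call in knockout against wildtype was lost without wildtype replicate 3 (1.41, adjusted p = 0.0564 by edgeR). Within ID runs 1 and 2 the log2 fold change was 2.29 and 2.69 for C362A against wildtype (adjusted p = 0.424 and 0.000584 by edgeR) and 1.34 and 1.52 for knockout against wildtype (adjusted p = 0.690 and 0.312). Summed over 14 macrophage markers, levels were 322 to 401 CPM in C362A, 311 to 404 CPM in knockout and 282 to 422 CPM in wildtype libraries. Summed over 10 neutrophil markers they were 43.4 to 112 CPM, 34.9 to 82.8 CPM and 20.5 to 49.5 CPM in the same order. Adgre1, a macrophage gene, had 440 to 537 counts in C362A, 273 to 577 in knockout and 255 to 336 in wildtype libraries. Csf1r, another, had 1839 to 2882, 2355 to 4161 and 2011 to 3915 counts. Counted over the comparisons, edgeR made 1 call among the macrophage and 2 among the neutrophil markers, with at most 0.0817% of all genes called. The part of these markers in the level of Cxcl10 was not tested. An exon of Cxcl10 overlaps one of Art3 on the other strand, and the library kit does not mark strand, so reads of the pair cannot be told apart there.

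The other 23 tested targets did not pass in C362A against wildtype. Of all 24, 21 had a positive log2 fold change, with a median of 0.20 and 13 at an unadjusted p under 0.05 in edgeR, against 51.4% positive, a median of 0.01 and 15.9% at that p over all genes. The list was chosen with earlier results of these data known, so these counts only describe it. Vcam1, an adhesion molecule gene of activated endothelium, was at 24.8, 27.8, 30.2, 35.4 and 20.7 CPM in C362A and at 18.7, 15.7, 14.7, 12.9 and 16.1 CPM in wildtype libraries. The groups did not overlap, as was so for 1.16% of all tested genes, and the log2 fold change was 0.83 (SE 0.16, adjusted p = 0.0583 by edgeR, and 0.000270 by DESeq2). Vcam1 also passed in edgeR with no filter on low counts (adjusted p = 0.0429), without C362A replicate 5 (0.92, adjusted p = 0.0138), without knockout replicate 4 (adjusted p = 0.0316) and without knockout replicate 5 (adjusted p = 0.0342). Without C362A replicate 5, 9.76% of all genes were called. With the enterocyte covariate its log2 fold change was 0.70 (adjusted p = 0.351 by edgeR), and within ID runs 1 and 2 it was 0.54 and 1.01 (adjusted p = 1 and 0.00413). In run 2, 13.5% of all genes were called. Summed endothelial markers were at 470 to 575 CPM in C362A and at 417 to 493 CPM in wildtype, and their part in the Vcam1 level was not tested. In C362A against knockout 21 of 24 targets were positive, with a median of 0.16, against 53.2% and 0.01 over all genes. There Nfkbia, the gene of an NF-kB inhibitor, was at 41.3 ± 3.84 CPM in C362A and 31.8 ± 2.72 CPM in knockout (0.38, adjusted p = 0.317 by edgeR, and 0.0466 without C362A replicate 5, where 4.35% of all genes were called). In knockout against wildtype 16 of 24 were positive with a median of 0.06, against 48.2% and 0.00 over all genes. There Tnfaip2, a TNF-induced gene, averaged 9.09 ± 2.57 CPM in knockout and 6.62 ± 0.902 CPM in wildtype (0.46, adjusted p = 1 by edgeR), with 0.91 within ID run 1 and 0.13 within ID run 2.

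Among the ligands, the lowest p belonged to Tnfsf14, which encodes LIGHT, and Ltb, the lymphotoxin beta gene, in C362A against wildtype. Tnfsf14 was at 0.579 ± 0.192 CPM in C362A and 0.300 ± 0.0440 CPM in wildtype (0.94, SE 0.30, adjusted p = 0.285 by edgeR), on 8 to 26 counts in a C362A library. Its value in C362A replicate 5 was 0.240 CPM, and without that library it passed (log2 fold change 1.14, adjusted p = 0.0212 by edgeR), as did 9.76% of all genes. Ltb was at 2.65, 3.22, 3.31, 3.21 and 2.43 CPM in C362A, at 1.91, 1.80, 1.38, 1.06 and 2.42 CPM in knockout and at 2.37, 1.48, 2.38, 2.58 and 2.13 CPM in wildtype libraries. Every C362A library lay above every knockout library, where 2.85% of all tested genes did not overlap in that comparison. The log2 fold change of Ltb was 0.79 (SE 0.21, adjusted p = 0.317 by edgeR, and 0.0419 without C362A replicate 5, where 4.35% of all genes were called). Eda, the ectodysplasin gene, averaged 5.79 ± 0.442 CPM in C362A libraries, 4.70 ± 0.531 CPM in knockout libraries and 5.36 ± 0.345 CPM in wildtype libraries, and did not pass in any comparison. Its C362A libraries, at 5.29 CPM or more, also all lay above its knockout libraries, at 5.28 CPM or less. The log2 fold change of Eda there was 0.30 (SE 0.11, adjusted p = 0.317 by edgeR).

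Among the receptors and the complex genes other than Casp8, none passed in edgeR with all libraries in the fit. Cd40, a costimulatory receptor gene, was at 4.77 ± 0.455 CPM in C362A and 3.87 ± 0.440 CPM in wildtype (0.30, adjusted p = 0.285 by edgeR). Tnfrsf11a, which encodes RANK, was at 52.6 ± 4.84 CPM in C362A libraries, 62.1 ± 5.77 CPM in knockout libraries and 61.5 ± 7.82 CPM in wildtype libraries, and passed in neither comparison of C362A. Its log2 fold change was −0.22 against wildtype and −0.24 against knockout, and −0.03 and 0.00 with the enterocyte covariate, in which C362A and knockout libraries did not overlap. Tnfrsf1b was at 20.1 ± 3.23 CPM in C362A and 16.6 ± 0.877 CPM in knockout (0.28, adjusted p = 0.317 by edgeR, and 0.0436 without C362A replicate 5, where 4.35% of all genes were called), with 0.00 within ID run 1 and 0.44 within ID run 2. In knockout against wildtype, Tnfrsf11b, the osteoprotegerin gene, had 0.17 and Tnfrsf18, which encodes GITR, had −0.57, both with an adjusted p of 1 by edgeR. Tnfrsf18 turned direction between the ID runs, with 0.58 in run 1 and −1.56 in run 2.

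Adam17, which encodes the protease that sheds TNF and its receptors from the cell surface, was at 76.6, 76.3, 78.3, 80.3 and 74.0 CPM in C362A, at 73.0, 76.5, 75.5, 73.4 and 74.7 CPM in knockout and at 71.0, 65.8, 68.0, 69.5 and 70.4 CPM in wildtype libraries. All libraries of both mutants lay above all wildtype libraries, a separation that 1.16% of all tested genes had for C362A and 0.702% for knockout, in either direction. The difference was small, with a log2 fold change of 0.16 for C362A (SE 0.05, adjusted p = 0.285 by edgeR) and 0.11 for knockout (SE 0.05, adjusted p = 1 by edgeR), and only the first passed without C362A replicate 5 (adjusted p = 0.0414 by edgeR). In that fit 9.76% of all genes were called for C362A against wildtype. Sharpin, a subunit of the linear ubiquitin ligase, averaged 29.7 ± 2.85 CPM in C362A and 34.4 ± 5.01 CPM in wildtype (−0.21, adjusted p = 0.309 by edgeR). That difference was −0.02 with the enterocyte covariate, −0.02 within ID run 1 and −0.35 within ID run 2. Traf5 averaged 4.97 ± 0.322 CPM in C362A and 4.19 ± 0.329 CPM in knockout (0.24, adjusted p = 0.324 by edgeR).

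**Figure D4:**
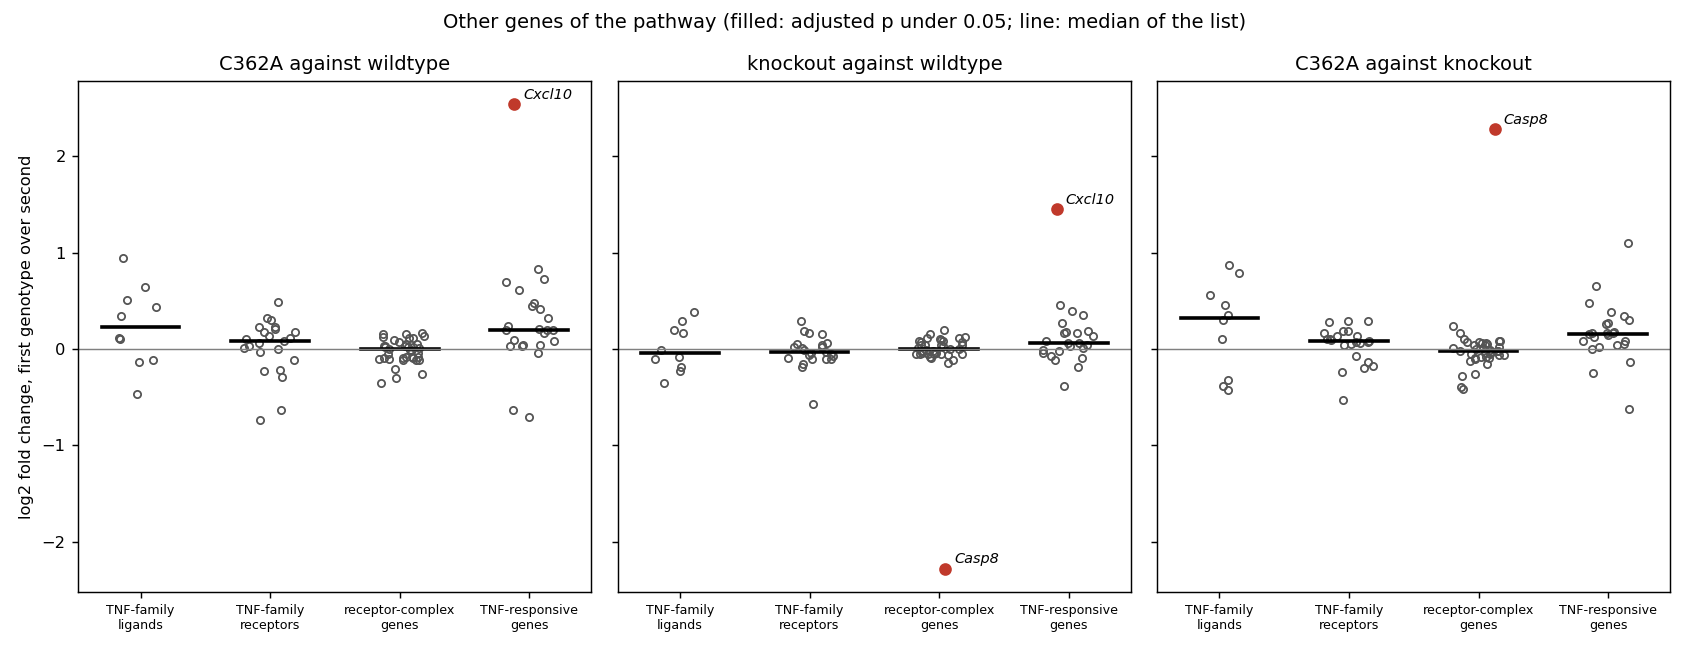
Log2 fold changes of the tested genes of the 4 pathway lists in each comparison, with filled points for genes past the edgeR test and a line at the median of each list. The targets in C362A against wildtype have a median of 0.20, with Cxcl10 as the only filled point. The lists were chosen with earlier results of these data known.

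Across the 15 libraries, Tnfsf10, Cyld and Fas moved with the enterocyte markers, a relation examined after the values were seen. With the mean log2 CPM of the 16 markers, Tnfsf10 had a Pearson r of 0.79 and a Spearman rho of 0.83 (permutation p = 0.000540 and 0.000280, adjusted over all 18370 genes 0.00453 and 0.00396). Cyld had r = 0.78 and rho = 0.76 (permutation p = 0.000480 and 0.00162, adjusted over all genes 0.00478 and 0.0141). Fas had r = 0.76 and rho = 0.68 (permutation p = 0.000860 and 0.00640, adjusted over all genes 0.00642 and 0.0316). Values this far from 0 were common, reached by 2466 of 18370 tested genes for Tnfsf10, 2613 for Cyld and 3024 for Fas. Of the 8 relations computed, the other 5 had r between −0.31 and 0.51 and did not pass.

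C362A replicate 1 and wildtype replicate 4 were the 2 libraries farthest from the median of the markers. Without them, r was 0.62 for Tnfsf10 (permutation p = 0.0287, n = 13), 0.59 for Cyld (permutation p = 0.0262) and 0.47 for Fas (permutation p = 0.0959). Each r was lower than over all libraries. These p-values are unadjusted, and only that of Fas was above 0.05. Whether Fas depends more on those libraries than the other genes was not tested. Within ID runs 1 and 2, r was 0.70 and 0.84 for Tnfsf10, 0.86 and 0.79 for Cyld, and 0.39 and 0.91 for Fas, over 6 and 9 libraries. With the genotype means removed, it was 0.76, 0.86 and 0.80 for Tnfsf10, Cyld and Fas. With the marker mean as a covariate, the log2 fold change for C362A against wildtype was 0.30 for Tnfsf10, 0.25 for Fas and 0.14 for Cyld. In edgeR 0 of 8 genes passed in any comparison. That fit called 0.0490% of all genes in C362A against wildtype, 0.0381% in knockout against wildtype and 0.0163% in C362A against knockout. The marker means of C362A and knockout libraries did not overlap. Whether enterocytes or other cells hold these transcripts was not tested.

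**Figure D5:**
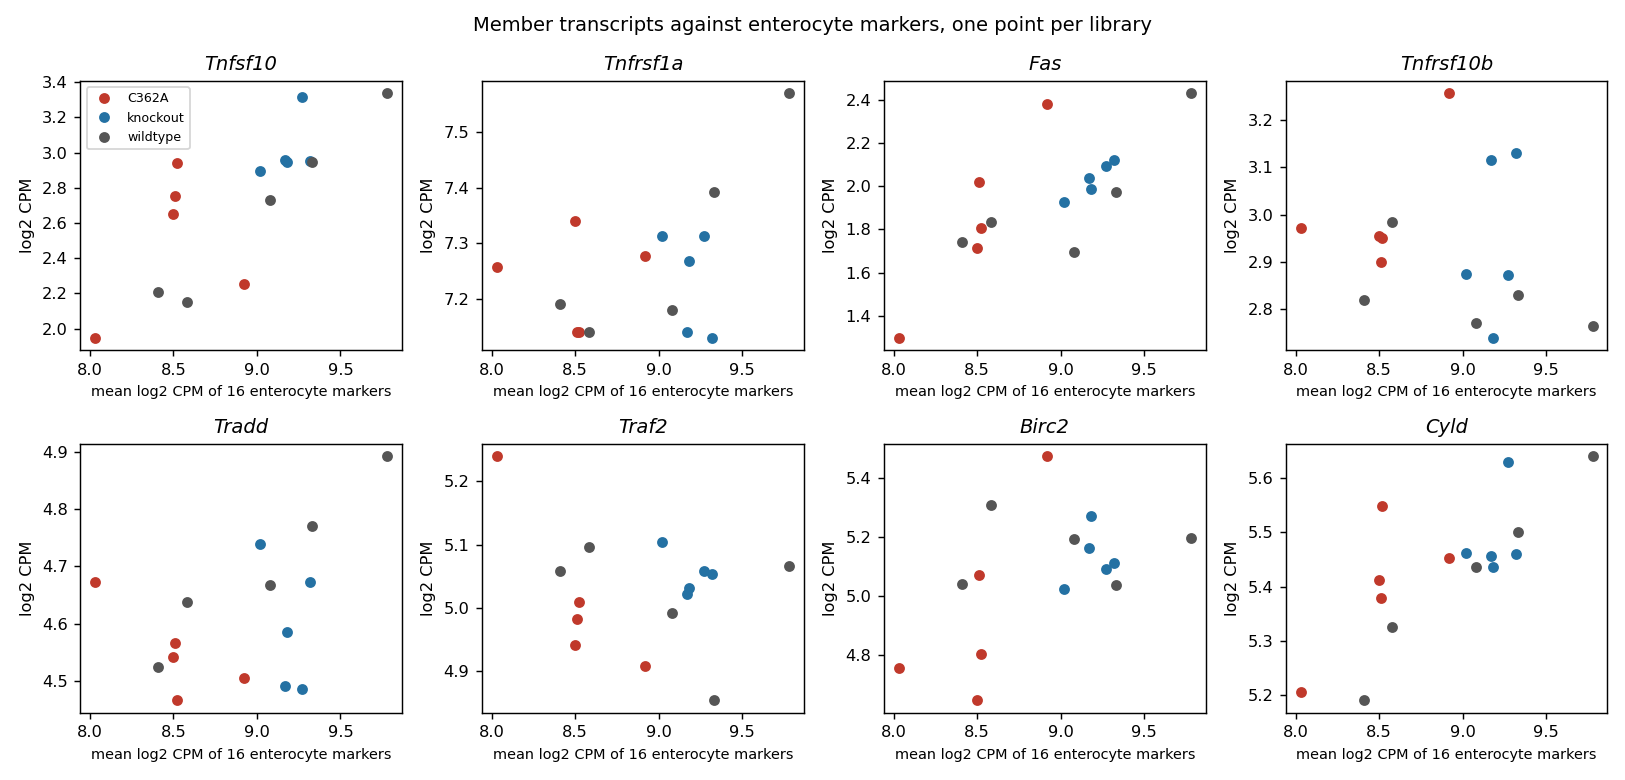
TMM-scaled log2 CPM of each of the 8 tested genes against the mean log2 CPM of 16 enterocyte markers, with 1 point per library and colours for the genotypes. The points rise together for Tnfsf10, Cyld and Fas, with r of 0.79, 0.78 and 0.76 over 15 libraries, and scatter more in the other panels.

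The genes whose pattern over the 15 libraries was most like each of the 8, after the genotype means were removed, were no members of the pathway. Their Pearson r with log2 CPM is given as a description over 17324 named genes. Birc2 was most like Eif4a2 and Zmym5, each with r = 0.95, Tnfsf10 most like Ncoa4 (0.94), Cyld most like Sdcbp and Dpyd (0.94 each), and Fas most like Tmem127 and Map3k21 (0.93 each). Tnfrsf1a was most like Cpq (0.93), Tradd most like Thap7 (0.92), Traf2 most like Senp3 (0.88) and Tnfrsf10b most like Plet1 (0.86). Among the 8 themselves, Tnfsf10 and Cyld were most alike, with r = 0.89, and Fas and Traf2 least, with r = −0.52.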

How the data were processed

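PolyA RNA of 15 libraries was sequenced as single-end 50 bp reads from TruSeq v2 libraries, which do not mark strand, per the labels' protocols. Reads were aligned with GSNAP to GRCm38, per the submitters' processing notes. Neither the aligner version nor the gene models are stated in the labels or headers. Per the file headers, the authors counted reads with a unique alignment inside gene models, and their RPKM was adjusted by library size factors. Genes with near-identical copies therefore lose reads. Symbols came from RefSeq on GRCm38.p6 for 31049 of 36528 IDs and from GENCODE for 78. No exon of the 10 genes is shared with another gene.

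Counts were tested by quasi-likelihood in edgeR 4.0.16 under R 4.3.3, with TMM factors, filterByExpr (minimum count 10, minimum total 15), robust estimates and all 15 libraries in 1 fit. It covered 18370 genes, with a common biological coefficient of variation of 0.174. P-values were adjusted over all of them by Benjamini-Hochberg and called under 0.05. SEs and 95% intervals come from that fit. Total counts of over 31896399 per library leave genes under 1 CPM on few reads. Within a genotype, the chi-square per gene between 2 libraries was 10.69 to 139.05, so each counted as 1 sample. They were numbered in accession order.

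DESeq2 1.42.0, limma 3.58.1, exact permutation of log2 CPM, other scalings and filters, covariates, ID runs and each library left out were alternatives. Named were all 10 genes and, per list and comparison, the called genes and the 2 lowest p. The genes with the most similar pattern were the 2 highest r per gene, of which some are given. Cd3e, Prf1, Gzmb, Nkg7, Cdx2, Myh11, Adgre1, Csf1r and the further levels per length were chosen after their values were seen. The 10 genes and the lists were chosen with earlier results of these data known. The code was tested on simulated data.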

Additional observations from a re-analysis of the deposited data

Results flagged for a closer look

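Of 30 groups of 5 libraries, 1 for each of the 10 genes and 3 genotypes, 7 had a library far from the others by Dixon's criterion for 5 values. Chance gives about 1 in 20 groups. C362A replicate 5 was far above the others in Tnf, at 0.509 CPM against 0.0811 to 0.187 CPM, and in Tnfrsf10b, at 9.56 CPM against 7.46 to 7.85 CPM. C362A replicate 1 was far above the others in Traf2, at 37.8 CPM against 30.0 to 32.2 CPM. Knockout replicate 3 was far above the others in Tnfsf10, at 9.94 CPM against 7.45 to 7.78 CPM, and in Cyld, at 49.5 CPM against 43.3 to 44.1 CPM. Wildtype replicate 5 was far above the others in Tnfrsf10b, at 7.91 CPM against 6.80 to 7.11 CPM. Wildtype replicate 3 was far below the others in Fasl, at 0 CPM against 0.0266 to 0.0327 CPM, which is a difference of 1 count.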

How the results depend on the processing

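Of 741 fits of the 8 genes under an alternative, 690 kept direction and side of the threshold, 49 turned direction and 2 newly passed, both Birc2 in C362A against wildtype (−0.50 in ID run 2, −0.33 without C362A replicate 5). No value that turned passed the test, and the cause was not tested. With the enterocyte covariate, Fas turned to 0.25, −0.01 and 0.25 in C362A against wildtype, knockout against wildtype and C362A against knockout, Tnfrsf1a to 0.05 and 0.14 in both C362A comparisons, Tnfsf10 to 0.30 and 0.08, Cyld to 0.14 and 0.12, Traf2 to −0.07 against wildtype and Tradd to 0.04 against knockout. C362A and knockout libraries did not overlap in that covariate, so its values for C362A against knockout cannot tell genotype from marker level. In ID run 1, Fas turned to 0.34 and 0.13, Birc2 to 0.24, 0.10 and 0.14, Cyld to 0.06, Traf2 to −0.02, Tnfrsf1a to 0.07 and Tnfrsf10b to −0.04. In ID run 2, Fas and Tnfrsf10b turned to −0.02 in knockout against wildtype and Traf2 to 0.00 in C362A against knockout. Tnfrsf1a in C362A against knockout was 0.04 on library totals, 0.00 with the run block and 0.03 with the Y-linked covariate, where Tnfrsf10b was −0.01. Traf2 was 0.00 on totals in that comparison, and against wildtype −0.01 under the 5 CPM filter and 0.00 in a fit of 2 genotypes. With 1 library left out, C362A against wildtype ran from −0.22 to 0.07 for Fas, −0.08 to 0.03 for Cyld, −0.05 to 0.03 for Traf2 and −0.11 to 0.00 for Tnfrsf1a. Knockout against wildtype ran from −0.06 to 0.02 for Birc2, −0.11 to 0.01 for Tnfrsf1a and 0.00 to 0.06 for Traf2, and C362A against knockout from −0.01 to 0.11 for Tnfrsf10b and −0.03 to 0.02 for Tnfrsf1a.

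Of the 8 genes, 1 was called in C362A against wildtype in ID run 2, 0 to 1 with a library left out, and 1 in the test for any genotype in ID run 2. Of the pathway genes, C362A against wildtype called 1, but 4 by DESeq2, 2 with no filter, 0 under the 5 CPM filter, 0 in ID run 1, 11 in ID run 2 and 1 to 11 with a library left out. The 5 CPM filter asks for that level in 5 libraries. Cxcl10, above 5 CPM only in C362A replicate 1 (5.42 CPM), was therefore not tested under it in any comparison. The 11 of 95 are 11.6%, against 13.5% of all genes in ID run 2 and 9.76% without C362A replicate 5. Knockout against wildtype called 2, but 1 at an adjusted p under 0.01, under the 5 CPM filter, in a fit of 2 genotypes, in either ID run, and 1 to 2 with a library left out. C362A against knockout called 1, but 2 by DESeq2, limma-voom and limma on RPKM, 4 in ID run 2 (4.21%, against 2.03% of all genes) and 1 to 9 with a library left out (9.47% without C362A replicate 5, against 4.35%). Over all genes, C362A against wildtype called 15 by edgeR, 54 by DESeq2 and 7 to 1807 with a library left out. The exact permutation test called 0 genes in each comparison. Its 252 splits allow no p below 0.00794, and too few genes reached that p to pass after adjustment.

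No paired analysis was possible because the labels give no replicate numbers. Depth limits Tnf and Fasl, whose libraries hold 17 counts or fewer, and the low levels of Cxcl10 and Tnfsf14 in wildtype.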
